A study of Mus musculus with 207 samples.

Results

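Young beta cells with a high level of Nupr1 were compared with young beta cells in which Nupr1 was not detected. The cells were chosen by their own Nupr1 value: a cell with at least 100 TPM (length-corrected transcript shares that add up to 1000000 in each cell) was called Nupr1-high, and a cell below 1 TPM Nupr1-negative. Of 138 young cells, 38 were Nupr1-high, 60 were Nupr1-negative and 40 lay between, so the comparison used 98 of the 207 cells of the series. The study captured single cells from pancreatic islets of male mice on a Fluidigm C1 chip, made full-length cDNA with the SMARTer kit and sequenced 1 library per cell. Young means 3 months of age (138 cells) and Old means 26 months (69 cells), and the labels give no strain, genotype or treatment for either age. The labels name no animal, so each age counts as 1 sample, cells are not replicates of it, and no test between cells was made. Every value below therefore describes these cells, with the SD taken over cells.

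Nupr1 encodes a small, disordered chromatin-associated protein that many cell types make under stress. It is best known as a gene switched on late in the integrated stress response. In that pathway, kinases that sense misfolded proteins in the endoplasmic reticulum (ER), lack of amino acids, lack of haem or viral RNA phosphorylate the translation factor eIF2. Most translation then slows while the transcription factor ATF4 is made, and ATF4 with its partners turns on genes for amino acid supply, tRNA charging, redox balance and, when stress lasts, cell death. Beta cells make insulin at a high rate and are known for their dependence on this pathway and on the ER chaperones of the unfolded protein response.

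ATF4 is known to bind, with a C/EBP partner, to an element of the type TGATGNAA. This element, read on both strands (TTNCATCA on the other), was looked for in windows from 250 bases before to 50 after the gene starts of RefSeq, build GRCm38.p6. Of all 27025 genes with such a window, 4.51% held at least 1 match at any of their starts. The window of Nupr1 held a match, as did those of 6 of the 20 integrated stress response genes that had one (30.0%), 5 of 17 amino acid genes (29.4%) and 5 of 9 tRNA synthetase genes (55.6%). Among ER chaperones it was 1 of 18 (5.56%), and it was 0 of 15 for immediate early genes. The stretches around the matches of Nupr1 and of 2 of the genes followed below are shown 5′ to 3′ on the gene's own strand, with the matching bases in capitals.
Nupr1: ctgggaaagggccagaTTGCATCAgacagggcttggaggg
Chac1: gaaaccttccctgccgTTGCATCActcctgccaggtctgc
Atf3: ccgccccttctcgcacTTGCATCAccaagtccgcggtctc
The match of Nupr1 begins 110 bases before its start, in chr7:126625557-126625596 on the minus strand. Those of Chac1 (chr2:119351033-119351072, plus strand) and Atf3 (chr1:191183420-191183459, minus strand) begin 193 and 110 bases before theirs. A match is a description of the letters and not evidence of binding in these cells.

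Nupr1 itself (NCBI Gene 56312) lies at chr7:126623246-126625470 in GRCm38.p6, where RefSeq also places the noncoding gene Gm39087, which has no row in the table used. In the 38 Nupr1-high cells it ranged from 100 to 4633 TPM with a median of 530 TPM. Of the 60 Nupr1-negative cells, 47 held exactly 0 and 13 a value above 0. The 2 cells just inside the upper threshold had 100 and 132 TPM and the 2 just outside it had 79.2 and 70.9 TPM. At the lower threshold, the highest negative cell had 0.997 TPM and the next cell above had 1.04 TPM. The groups thus stand on either side of a range that 40 cells fill.

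**Figure D1:**
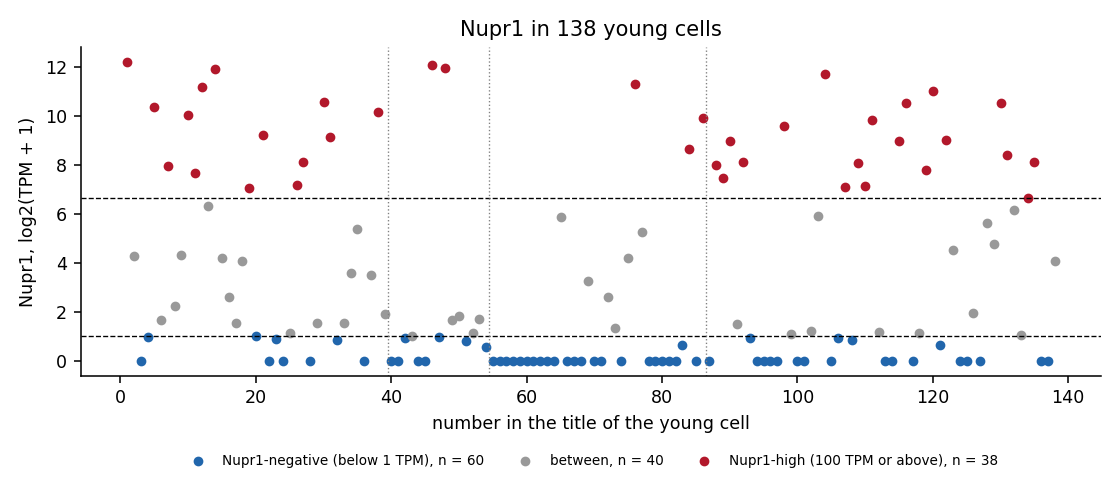
Nupr1 as log2(TPM + 1) (vertical axis) in each of the 138 young cells, in the order of the number in the cell's title (horizontal axis). Dashed lines mark 1 and 100 TPM, dotted lines divide titles 1 to 39, 40 to 54, 55 to 86 and 87 to 138, and 23 of the 60 negative cells lie in titles 55 to 86 against 3 of the 38 high ones.

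The 2 groups were not spread evenly over the title numbers. Titles 1 to 54 held 16 high and 17 negative cells, and titles 55 to 138 held 22 and 43. Within these blocks, titles 40 to 54 are a run of cells with few detected genes, counted at 1 TPM or above (medians of 2291 in its 8 negative cells and 2374.5 in its 2 high cells). Titles 55 to 86 held 23 negative and 3 high cells, while titles 87 to 138 held 20 and 19. The labels do not say what the numbers stand for. Values are therefore given pooled, within titles 1 to 54 and 55 to 138, and, where it bears on a result, within titles 87 to 138 alone.

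The chosen cells were beta cells by their markers. Ins1, Ins2, Iapp, Ucn3, Slc30a8 and G6pc2 were detected in all 98, Slc2a2 in 32 of 38 high and 55 of 60 negative cells, and the transcription factors Pdx1 (17 and 25 cells) and Nkx6-1 (25 and 35 cells) in fewer. Sequencing depth is unknown, since the table holds only TPM. The number of detected genes ran from 2320 to 6654 in Nupr1-high cells (median 4412) and from 1604 to 6223 in Nupr1-negative cells (median 4162). Within titles 1 to 54 the medians were 4016 and 2967, and within titles 55 to 138 they were 5071.5 and 4476, so that high cells had more detected genes in both blocks. No 2 cells had identical values.

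Integrated stress response genes were higher in the Nupr1-high cells. This held for Atf4 itself, for the transcription factors Ddit3 and Cebpg and for the targets Chac1, Vldlr and Eif4ebp1, with log2 ratios from 0.73 for Atf4 to 2.18 for Vldlr. The median ratio of the ER chaperones, outputs mainly of the other arms of the unfolded protein response, was -0.10. Of 4214 genes with a mean of at least 10 TPM over all young cells (Nupr1 left out), 1189 (28.2%) were at least 1.5-fold higher in Nupr1-high cells and 620 (14.7%) at least 1.5-fold lower, on the ratio of group means with 1 TPM added to each. The median log2 ratio of all 4214 genes was 0.19. After rescaling each cell without the insulin genes, Iapp and the mitochondrial genes, this median was 0.00, and 881 genes were higher and 865 lower. The medians and counts of the lists below are to be read against the 0.19 and against the 28.2% higher and 14.7% lower of all tested genes. In both title blocks as well as pooled, 400 genes (9.49%) were higher and 233 (5.53%) lower.

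Of the 23 integrated stress response genes listed, 10 passed that filter. Among these 10, 8 were at least 1.5-fold higher in Nupr1-high cells and 1 was lower, with a median log2 ratio of 1.30. It was 1.55 within titles 1 to 54, 0.88 within titles 55 to 138 and 1.53 within titles 87 to 138, against 0.34, 0.08 and 0.03 for all tested genes. Pooled and within both blocks, 6 of the 10 were at least 1.5-fold higher and 0 lower. A gene can pass the filter through the high cells alone, so all 23 listed genes were also counted without a filter: 13 were at least 1.5-fold higher, 2 lower, 3 were at 0 in both groups, and the median was 0.76. Without a filter, 14.7% of the 25128 genes seen in young cells were higher and 11.7% lower.

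Atf4, the central transcription factor of the pathway, was detected in all 38 Nupr1-high cells, at 10.2 to 1130 TPM with a median of 197. In the 60 negative cells it ran from 0 to 984 TPM with a median of 79.2. The 2 ranges overlap over nearly their whole length, and what differs is where the middle of each group lies. The means were 244 ± 235 (SD, n = 38) and 147 ± 184 TPM (SD, n = 60), a log2 ratio of 0.73, with 0.84 in titles 1 to 54 and 0.59 in titles 55 to 138, and 0.39 after the rescaling. Atf4 is controlled mainly through translation of its mRNA, which TPM do not measure.

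Ddit3 encodes CHOP, the factor linked to cell death under lasting ER stress. It was detected in 32 of 38 high cells (84.2%, 95% exact binomial interval 68.7 to 94.0%) and in 35 of 60 negative cells (58.3%, 44.9 to 70.9%). These intervals, like the others below, cover only the counting of cells. The median was 55.3 TPM (0 to 703) against 2.28 TPM (0 to 249). The log2 ratio of the means was 1.59, with 4.63 in titles 1 to 54, where 2 of 17 negative cells held Ddit3 at 1 TPM or above, and 1.17 in titles 55 to 138, where 33 of 43 did. Most high cells thus carried Ddit3 in both blocks, and the blocks differed mainly in their negative cells.

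Chac1 encodes an enzyme that breaks down glutathione and is a target of ATF4 and CHOP. It was detected in 26 of 38 high cells (68.4%, 51.3 to 82.5%), with a median of 28.2 TPM and a highest value of 522, and in 20 of 60 negative cells (33.3%, 21.7 to 46.7%), with a median of 0.244 TPM and a highest value of 359. The means, 92.2 ± 131 and 21.9 ± 60.0 TPM (SD), gave a log2 ratio of 2.03, with 2.63 and 1.83 in the blocks. Vldlr, the receptor for very-low-density lipoprotein, was detected in 29 of 38 high and 24 of 60 negative cells. Its median was 12.7 TPM (0 to 168) against 0.306 TPM (0 to 46.8), and its log2 ratio 2.18 (3.10 and 1.86 in the 2 blocks).

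Cebpg encodes a dimer partner of ATF4. Its median was 5.76 TPM (0 to 250) in high cells and 0.141 TPM (0 to 83.2) in negative ones, with 25 of 38 and 19 of 60 cells detected and a log2 ratio of 2.04 (3.19 and 1.5 in the blocks). Eif4ebp1 encodes a repressor of cap-dependent translation. It was detected in 22 of 38 high cells and 14 of 60 negative cells, at 0 to 390 and 0 to 377 TPM, with medians of 5.08 and 0 and a log2 ratio of 1.81 (1.11 and 2.29). Trib3, a pseudokinase that restrains ATF4 and CHOP, did not pass the filter. It was found in 12 of 38 high and 3 of 60 negative cells, its highest values were 555 and 74.4 TPM, and the first of these made up 58.1% of all Trib3 in the high cells.

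**Figure D2:**
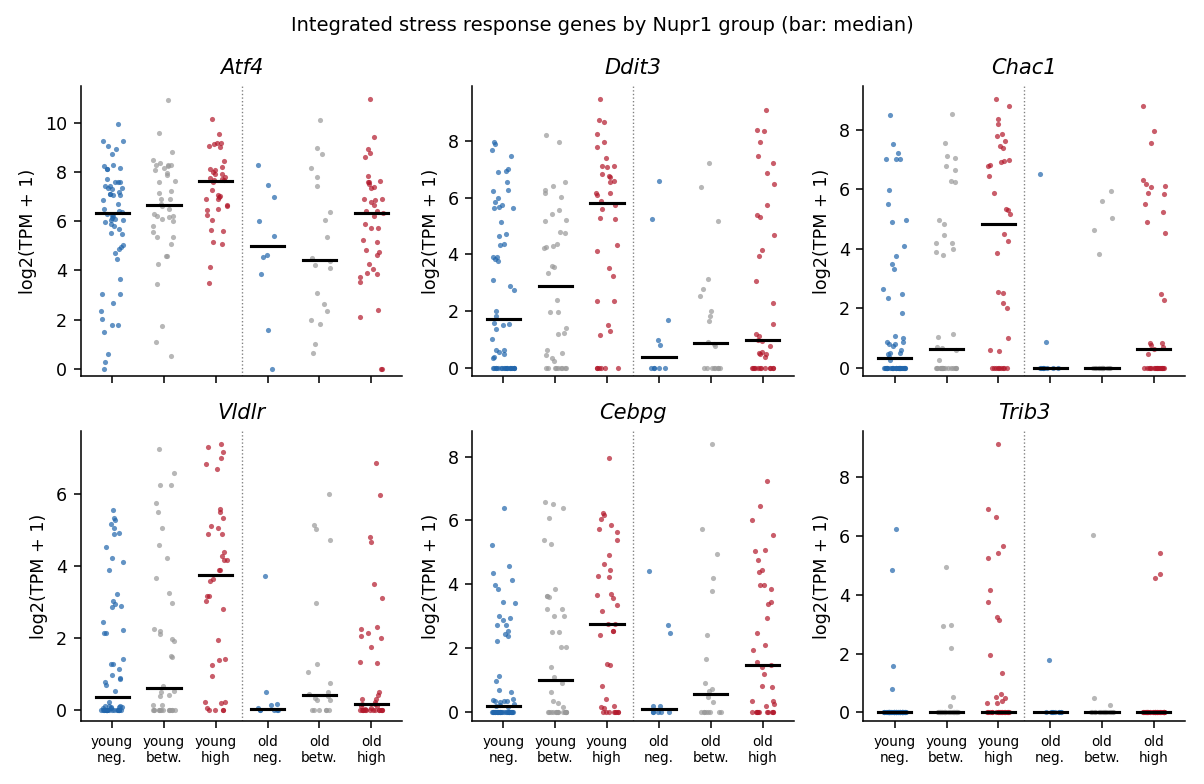
Levels as log2(TPM + 1) (vertical axes) of 6 integrated stress response genes in single cells, in young and old cells that are Nupr1-negative (60 and 10 cells), between the thresholds (40 and 20) or Nupr1-high (38 and 39). Each point is a cell and each bar a median; in young cells the bars of Ddit3 (55.3 against 2.28 TPM), Chac1, Vldlr and Cebpg stand well above those of the negative cells, while Ddit3, Chac1, Vldlr and Cebpg also have young high cells at 0.

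Cells were also counted by how many of these genes they held. Of Ddit3, Chac1, Vldlr and Cebpg, at least 3 were detected together in 29 of the 38 high cells (15 with 3 and 14 with 4) and in 13 of the 60 negative cells (11 and 2). Only 1 high cell held none of the 4, against 11 negative cells. Within titles 55 to 138, where more genes were detected per cell, 20 of 22 high and 13 of 43 negative cells held at least 3, and within titles 1 to 54 it was 9 of 16 and 0 of 17. These 4 genes were taken from those already higher in the same high cells, so the counts describe that difference again. Members such as Atf3 and Eif2ak3 were not among the 4. Over all 10 members that passed the filter, a median of 7 was detected per high cell and of 5 per negative cell.

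The remaining members had log2 ratios from -0.61 for Atf3 to 1.01 for Eif2ak3. Eif2ak3 encodes PERK, the ER kinase that phosphorylates eIF2. Its log2 ratio was 1.01, but it was detected in 16 of 38 high cells and 28 of 60 negative cells, and 1 cell held 37.4% of all Eif2ak3 in the high group. Atf5, a relative of Atf4, was found in 32 of 38 and 32 of 60 cells, with a log2 ratio of 0.61 (0.46 and 0.56 in the blocks). On the difference of mean log2(TPM + 1) Atf5 was at 1.13, beside a median of 0.27 for all tested genes. Ppp1r15a encodes GADD34, which brings a phosphatase to eIF2 and ends the response. It had a log2 ratio of 0.46, a median of 3.86 TPM in high and 3.87 TPM in negative cells, the opposite sign in titles 55 to 138 (-0.44), and a ratio of -0.31 without the highest cell of each group. Atf3, a transcription factor induced both by this pathway and by cell handling, was lower in Nupr1-high cells (log2 ratio -0.61), with 10 of 38 and 18 of 60 cells detected, a value of -1.88 in titles 1 to 54, -0.14 in titles 55 to 138 and 2.20 in titles 87 to 138. Of the 2 genes whose element is printed above beside that of Nupr1, Chac1 was thus higher in the pooled high cells and Atf3 was not.

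**Figure D3:**
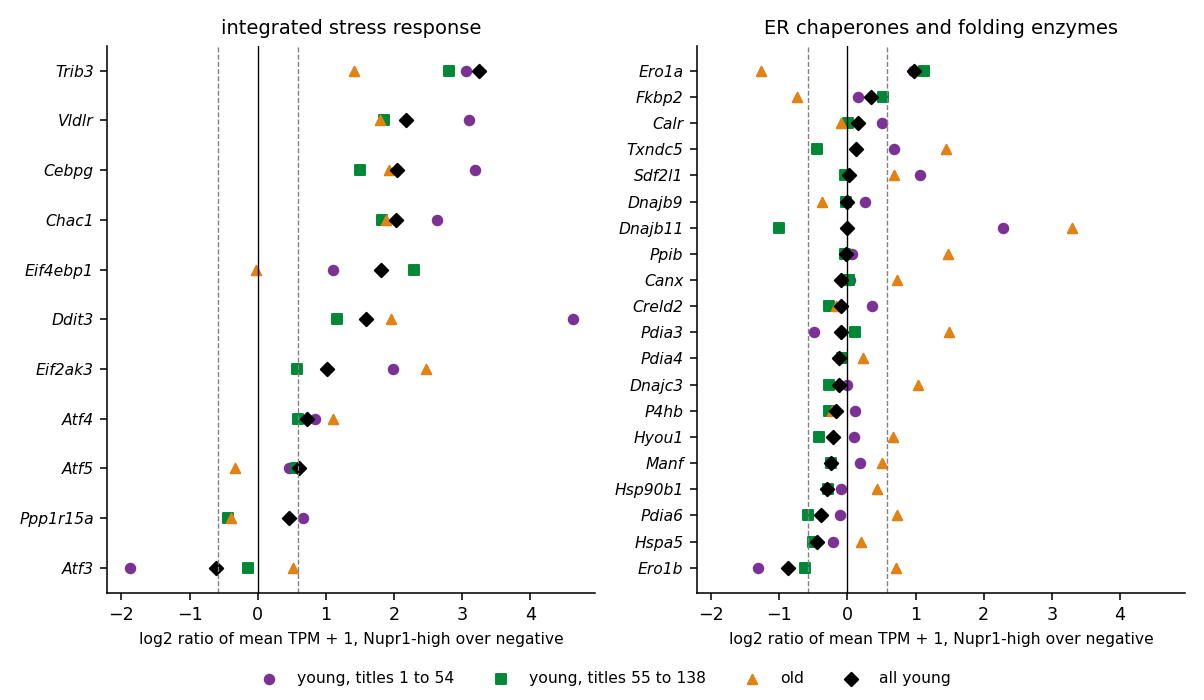
The log2 ratio of mean TPM + 1 in Nupr1-high over Nupr1-negative cells (horizontal axis) for 11 integrated stress response genes (left) and 20 ER chaperones and folding enzymes (right), over all young cells, within each title block and in old cells; dashed lines mark 1.5-fold. The pooled values (black) run from -0.61 for Atf3 to 3.25 for Trib3 on the left, and from -0.87 for Ero1b to 0.98 for Ero1a on the right, where most lie near 0.

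Cells between the thresholds can be placed by their amount of Nupr1 as well. A score per cell was taken as the mean of log2(TPM + 1) over the 10 genes that passed the filter. Its median was 2.19 in the 47 young cells without any Nupr1, 1.57 in 13 cells above 0 and below 1 TPM, 2.53 in 23 cells from 1 to below 10 TPM, 2.86 in 17 cells from 10 to below 100, 3.29 in 24 cells from 100 to below 1000 and 3.90 in 14 cells at 1000 TPM or above. The median number of detected genes in the same 6 classes was 4304, 3817, 4006, 4404, 4544 and 4316, lowest in the class with the lowest score and highest from 100 to below 1000 TPM. The part of detection in the order of the scores was not tested. Cells within a class varied widely: at 1000 TPM or above the score ran from 1.21 to 5.59, and without Nupr1 from 0.166 to 4.16. Mean Ddit3 in the same 6 classes was 37.9, 17.1, 18.3, 49.5, 81.5 and 138 TPM. Mean Chac1 was 22.0, 21.4, 46.5, 16.3, 68.4 and 133 TPM. Both were highest at 1000 TPM or above, but neither rose steadily from class to class below 100 TPM. Over the 138 young cells Pearson's r between log2(Nupr1 + 1) and the score was 0.47 (Spearman's rho 0.37), and it was 0.54 over titles 1 to 54 and 0.51 over titles 55 to 138. With the number of detected genes it was 0.12, 0.34 and 0.16. The points share a library's total, which TPM set to the same sum, and r is given as a description. A gene of the score can have passed the filter through the high cells alone, which can raise the score where Nupr1 is high. No score over all 23 listed genes was made, so the part of this choice was not tested.

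Genes of amino acid supply are direct outputs of ATF4. Of the 12 of 21 listed genes that passed the filter, 7 were at least 1.5-fold higher and 1 lower, with a median log2 ratio of 0.73, but the median was 0.10 within titles 1 to 54 and 0.56 within titles 55 to 138. Here too a gene can pass the filter through the high cells alone. Without a filter 12 of the 21 were higher and 1 lower, beside 14.7% and 11.7% of all genes seen in young cells. Psph and Psat1 catalyse steps of serine synthesis. Psph was found in 17 of 38 high and 11 of 60 negative cells, at 53.0 ± 153 and 7.08 ± 21.5 TPM (SD), with a log2 ratio of 2.74 (0.17 within titles 87 to 138) and a single cell at 888 TPM holding 44.1% of the high group's total. Psat1 had a log2 ratio of 2.57 (2.13 and 2.81 in the blocks) with 10 of 38 and 7 of 60 cells detected. The neutral amino acid transporter Slc38a2 (log2 ratio -0.36) and Cbs, which makes cystathionine from homocysteine and serine (-2.27), lay at the other end. The tRNA synthetases charge tRNAs with amino acids. Without a filter 9 of the 13 listed were at least 1.5-fold higher and 0 lower. Of the 12 that passed, 8 were higher and 0 lower, with a median of 0.80. That median was 1.52 within titles 1 to 54, 0.35 within titles 55 to 138 and 0.02 within titles 87 to 138. Cars, for cysteine, had a log2 ratio of 2.67 (2.28 and 2.78 in the blocks), and Iars, for isoleucine, 1.76, with 71.7% of the high group's total in 1 cell and a ratio of 0.50 without the highest cell of each group. Lars and Wars were at -0.25 and -0.05.

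The ER chaperones and folding enzymes did not share the difference. All 20 listed genes passed the filter, 1 was at least 1.5-fold higher, 1 was lower, and the median log2 ratio was -0.10 (0.10 and -0.25 in the blocks). Hspa5 encodes BiP, the main ER chaperone. It was present in all 98 cells, at 11.0 to 1471 TPM with a median of 529 in high cells and at 45.8 to 2610 TPM with a median of 672 in negative cells, a log2 ratio of -0.45. The groups overlap almost completely, and the median of the high cells is the lower one. Hsp90b1 (GRP94) and Calr (calreticulin) had log2 ratios of -0.30 and 0.16 (-0.18 for Calr after the rescaling), and the disulfide isomerase Pdia6 -0.39. The 2 ER oxidases went apart: Ero1a, the widely expressed form, was higher in high cells (0.98, with 25 of 38 and 24 of 60 cells detected), and Ero1b, the form abundant in beta cells, was lower (-0.87, medians of 190 and 304 TPM), each with the same sign in both blocks. In old cells both had the other sign, with Ero1a at -1.27 and Ero1b at 0.71, beside a median of 0.68 for all tested genes there.

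Of 15 sensors of the unfolded protein response and factors of ER-associated degradation that passed the filter, 5 were at least 1.5-fold higher and 1 lower, beside the 28.2% and 14.7% of all tested genes, with a median log2 ratio of 0.33 (0.40 and 0.09 in the blocks). Sel1l, the scaffold of the main ER ubiquitin ligase, had a log2 ratio of 1.44 (2.77 and 0.55 in the blocks), and Derl1, part of the export channel, 0.74 (1.15 and -0.04). Edem2, a mannosidase that marks misfolded glycoproteins, was at -1.10 (-1.54 and -0.85), and the lectin Os9 at -0.41. Xbp1, whose mRNA is spliced by the sensor IRE1, had medians of 76.4 and 45.6 TPM and a log2 ratio of 0.34. TPM per gene do not separate its spliced form.

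Other stress programmes showed mixed values. Among 10 genes of mitochondrial stress, 6 were at least 1.5-fold higher and 0 lower (median 0.64). The mitochondrial protease Lonp1 had a log2 ratio of 1.88 (1.76 and 1.61 in the blocks), the mitochondrial HSP90 Trap1 2.10 but -1.58 in titles 55 to 138, and Clpp and Hspe1 were at -0.30 and -0.02. Of 13 heat shock genes, 2 were higher and 4 lower (median -0.12, but 1.03 within titles 1 to 54 and -0.42 within titles 55 to 138). Hspa1a, the inducible HSP70, was found in 2 of 38 high and 21 of 60 negative cells, and its near-identical copy Hspa1b in 2 and 19, so that reads could be split between them. Their log2 ratios of -3.02 and -1.89 were 0.01 and 0.10 within titles 87 to 138 and -0.02 and 0.01 within titles 1 to 54. The co-chaperones Stip1 and Ahsa1 were at 0.84 and 0.79.

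The metallothioneins Mt1 and Mt2 bind zinc and copper and are induced by metals and glucocorticoids. Mt1 ranged from 0 to 17320 TPM with a median of 498 in high cells and from 0 to 3551 TPM with a median of 205 in negative cells, a log2 ratio of 2.07. It was 3.62 within titles 1 to 54 and 0.51 within titles 55 to 138, and Mt2 had 2.16, 3.68 and 0.65. Within titles 87 to 138 alone, Mt1 was at 1.87 and Mt2 at 2.27. The other end of the antioxidant list was Txnip, the glucose-induced inhibitor of thioredoxin, at 24.1 ± 49.4 against 90.5 ± 196 TPM (SD), a log2 ratio of -1.87 with -1.34 and -1.75 in the blocks and -0.35 within titles 87 to 138. Over the 21 genes of that list that passed the filter, 7 were higher and 1 lower, with a median of 0.26. Among 10 p53 targets and growth-arrest genes, 4 were higher and 4 lower. The cell-cycle inhibitor Cdkn1a was detected in 17 of 38 high and 10 of 60 negative cells (log2 ratio 1.48, with 1.52 and 1.29 in the blocks). Bax, a mediator of apoptosis, was found in 15 and 14 (1.37, with 0.55 and 2.0 in the blocks). Gadd45a was at -1.16 (-2.51 and 0.07 in the blocks), with 18 and 27 cells detected. Sesn1 was at -1.31 (-0.27 and -1.54), with 7 and 12 cells detected.

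Immediate early genes, which respond within minutes to growth factors, calcium entry and cell handling, were lower in the pooled Nupr1-high cells. Of 13 that passed the filter, 9 were at least 1.5-fold lower and 0 higher, with a median log2 ratio of -0.83. The size and sign of this difference varied between ranges of title numbers. The median was 0.12 within titles 1 to 54, -1.17 within titles 55 to 138, -0.52 within titles 87 to 138 and -0.41 without titles 55 to 86. A score over the 13 genes, made as above, had a median of 5.42 in the 23 negative cells of titles 55 to 86 and of 4.83 in its 3 high cells, against 4.04 and 3.72 in the 20 negative and 19 high cells of titles 87 to 138. In titles 1 to 39 this median was 3.55 in 9 negative and 3.18 in 14 high cells. In titles 40 to 54 it was 2.26 in 8 negative and 2.64 in 2 high cells. Fos had medians of 370 and 629 TPM in all high and negative cells, a log2 ratio of -0.64, and 0.05 within titles 1 to 54. Ier2 was lower in both blocks (-2.23 and -2.57, 9 of 38 and 40 of 60 cells detected), and also within titles 87 to 138 (-2.74). Klf6 was at -2.28, and Nr4a1 and Ier3 at 0.46 (-0.09 after the rescaling) and 0.25.

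**Figure D4:**
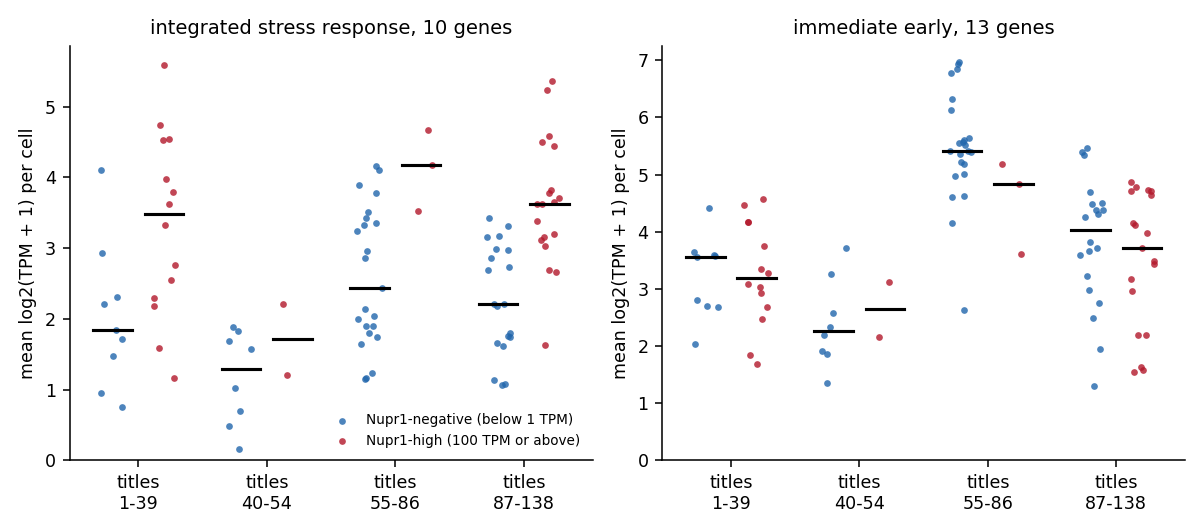
Mean log2(TPM + 1) per cell (vertical axes) over 10 integrated stress response genes (left) and 13 immediate early genes (right) in Nupr1-negative and Nupr1-high young cells, by 4 stretches of title numbers (horizontal axis); each point is a cell and each bar a median. The median stress score is higher in the high cells of every stretch (3.62 against 2.21 in titles 87 to 138). Titles 40 to 54 hold only 2 high cells, at 1.21 and 2.21, beside a median of 1.29 in 8 negative cells. The immediate early score stands apart in titles 55 to 86, which hold 23 negative and 3 high cells.

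As lists, the insulin and granule genes and the beta-cell transcription factors differed little, while single members differed in both directions. Over 23 insulin and granule genes the median log2 ratio was -0.09, with 2 higher and 2 lower. Ins2 was at 465000 ± 77840 TPM in high and 527300 ± 78880 TPM in negative cells (SD), and both insulin genes together took up medians of 53.7% and 58.7% of all TPM. The ratios of Ins2 and Ins1 were both -0.18. Iapp, the precursor of amylin, was at 0.39, with medians of 80980 and 61120 TPM. Ucn3, a marker of mature beta cells, had a log2 ratio of 0.60 that was 2.28 within titles 1 to 54 and -0.24 within titles 55 to 138. The granule genes Ptprn2 and Rab3a were at -0.63 and -0.70 and the vesicle SNARE Vamp2 at 0.65. The 9 beta-cell transcription factors that passed had a median of 0.00, from -0.81 for Foxo1 (-0.01 and -1.79 in the blocks) to 1.14 for Isl1. Isl1 was at 2.72 and 0.22 in the blocks and at 0.09 without titles 40 to 54.

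Of 8 genes of glucose sensing and membrane excitability, 4 were at least 1.5-fold lower pooled and 0 higher (median -0.56), but 1 was lower in both blocks as well. The median was -0.07 within titles 1 to 54, -0.55 within titles 55 to 138 and -0.18 on the difference of mean log2(TPM + 1). Slc2a2 encodes the glucose transporter GLUT2. Its median was 47.1 TPM (0 to 817) in high and 156 TPM (0 to 856) in negative cells, a log2 ratio of -0.88 that was 0.25 within titles 1 to 54 and -1.08 within titles 55 to 138. Trpm5, a calcium-gated cation channel, was at -1.39 (-3.28 and -0.82). The 2 subunits of the KATP channel, Kcnj11 and Abcc8, were at 0.00 and 0.01 pooled, with 2.22 and -1.44 in the blocks for Kcnj11.

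Nuclear genes of oxidative phosphorylation leaned the other way: 13 of 28 were at least 1.5-fold higher and 2 lower, with a median of 0.49 (0.60 and 0.25 in the blocks). The cytochrome c1 gene Cyc1 had the highest ratio (2.45, with 25 of 38 and 27 of 60 cells detected), but it was 3.81 and 0.64 in the blocks. Ndufv1 of complex I followed (1.45, with 1.71 and 0.89 in the blocks), while Uqcrc2 was lowest (-0.80, but 0.51 on the difference of mean log2(TPM + 1)). The 13 protein-coding genes of the mitochondrial genome had a median of 0.10, with 0 at or beyond 1.5-fold in either direction. Among 9 glycolytic genes 4 were higher and 1 lower, led by Aldoa (1.44, with 2.08 and 0.29 in the blocks) and Eno1 (1.20, with 1.22 and 0.6). In autophagy and the lysosome 10 of 19 were higher and 1 lower (median 0.60), but the median was 0.07 within titles 55 to 138. Atg5, needed to build autophagosomes, was at 1.31 (2.69 and 0.45), Bnip3 at 0.91, Map1lc3b at -0.40 and the cathepsin Ctsz at -1.88. Among the shorter lists, 2 of the 4 of 18 apoptosis regulators that passed the filter were higher and 0 lower (median 0.92). Without a filter 5 of the 18 were higher and 2 lower, with a median of 0.12. It was 1 of 6 genes for the paralog and binding partners of Nupr1 higher and 2 lower (0.14), and 0 of 7 class I presentation genes higher and 1 lower (-0.05). The 17 translocon genes had 0 in either direction (-0.04), 2 of 4 cell cycle genes were higher (0.67), 1 of 3 abundant nuclear noncoding RNAs was lower (-0.53), and 0 of 13 genes disallowed in beta cells passed the filter.

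**Figure D5:**
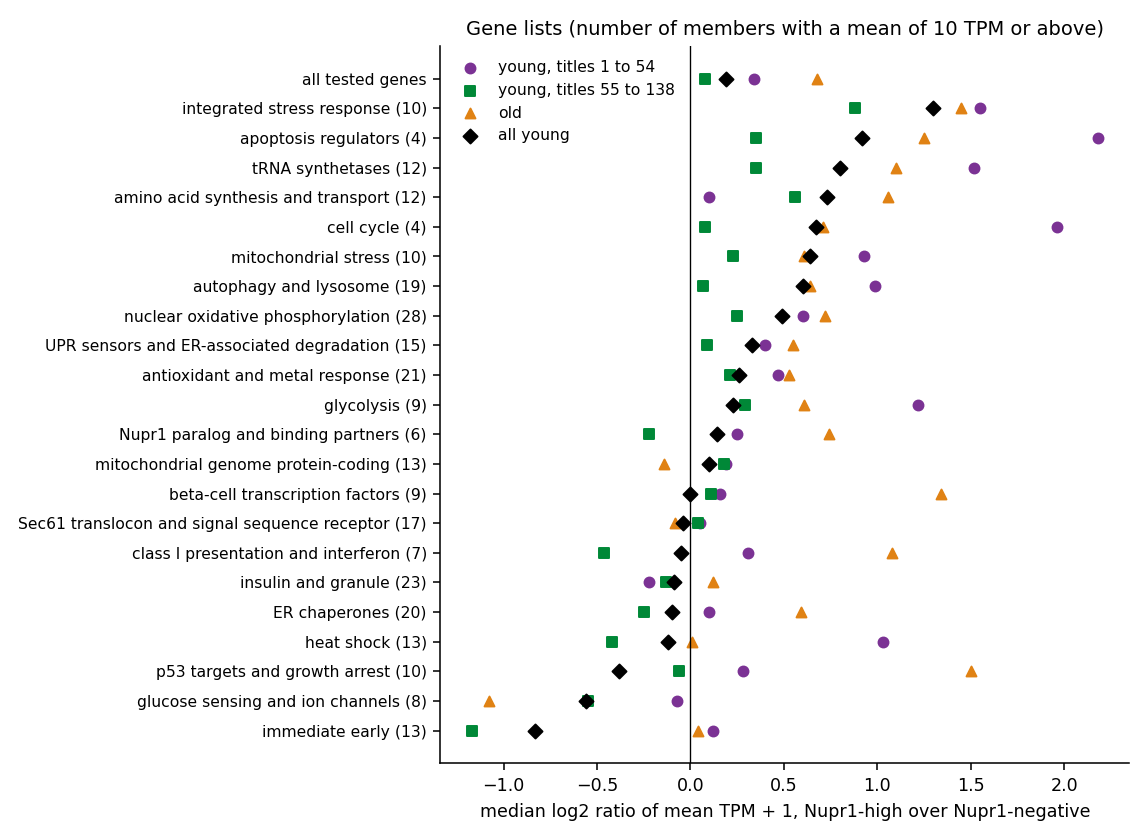
Median log2 ratio of mean TPM + 1 in Nupr1-high over Nupr1-negative cells (horizontal axis) for each gene list with at least 4 members above the filter (number in parentheses) and for all 4214 tested genes. Over all young cells (black) the lists run from -0.83 for immediate early genes to 1.30 for the integrated stress response, beside 0.19 for all tested genes, and many lists differ between titles 1 to 54 and titles 55 to 138.

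Many of the largest single ratios belonged to genes carried by few cells. Genes other than unnamed gene models were ranked if they were detected in at least 25% of the cells of the higher group and if the sign of the pooled ratio was also that of both blocks, of the difference in detection and of the difference on the log scale. The 12 highest of these ran from 2.72 to 3.66, and for 4 of them the median of the high cells was 0. The first was Vps4a, an ATPase of membrane scission, found in 12 of 38 high and 12 of 60 negative cells, with 59.5% of the high total in 1 cell. Its log2 ratio of 3.66 was 2.70 without the highest cell of each group. For Ifngr1, the interferon gamma receptor, 1 cell held 88.3%, and the ratio of 3.03 became 0.75. Ppp2cb, a catalytic subunit of protein phosphatase 2A, was broader, with 23 of 38 and 12 of 60 cells detected and means of 50.7 and 4.34 TPM. Pigu of GPI anchor synthesis, Aup1 of lipid droplets and ER-associated degradation, and Dnttip1 were detected in 14, 15 and 11 high cells. The 12 lowest under the same limits ran from -3.95 to -2.34, and 11 of them had a median of 0 in the negative cells. They began with Eif4ebp2, a relative of Eif4ebp1, at -3.95 (3 of 38 and 16 of 60 cells), followed by Gnat2, Pomgnt1 and Reps1.

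Transcripts of other cell types were measured in the same cells. Alpha-cell markers (9 genes) summed to a median of 1214 TPM in high and 1507 TPM in negative cells, of which Ttr, also expressed in beta cells, had medians of 548 and 809 TPM, and delta-cell markers (7 genes) to 69.4 and 78.0 TPM. Gcg, Sst and Ppy had log2 ratios of 0.11, 0.10 (-0.19 after the rescaling) and -0.01, and Pyy -0.90. The acinar, endothelial, stellate, Schwann, lymphoid and erythroid lists all had a median of 0 TPM in both groups. Ductal markers summed to medians of 220 and 144 TPM, with 490.5 and 145.5 TPM within titles 1 to 54 but 159.7 and 141.8 TPM within titles 55 to 138. Krt7 had medians of 62.0 and 26.9 TPM (log2 ratio 1.08, with 1.21 and 0.49 in the blocks). Krt18 was at 0.58 (2.10 and -0.58 in the blocks) and Krt8 at -0.35 (0.12 and -0.96). The sum of Spp1 came mostly from 1 cell in each group (62.1% and 79.1%). Macrophage markers (10 genes) had medians of 0.507 and 0.825 TPM and a highest sum of 88.8 TPM in high cells, but 1 negative cell reached 7121 TPM and the next 174 TPM. All 7 macrophage genes that passed the filter were lower in high cells. That cell held 96.2% of the negative group's Lyz2 and 99.7% of its C1qb, whose log2 ratios of -5.31 and -4.84 became 0.31 and 0.09 within titles 55 to 138. Cd68 and C1qa were lower in both blocks, with -3.52 and -1.36 within titles 55 to 138. Adgre1 and Aif1, both macrophage markers, were at 0 in all high cells. The part of these transcripts in the other ratios was not tested.

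Old cells gave the same comparison in cells outside the young groups, although with 10 Nupr1-negative cells. Of 69 old cells, 39 (56.5%) were Nupr1-high, 20 lay between and 10 (14.5%) were negative, against 27.5% high and 43.5% negative among young cells. The old high cells had a median of 710 TPM of Nupr1. The median number of detected genes was 4238 in the old high and 3531 in the old negative cells, and the median log2 ratio of the 4214 genes was 0.68, so that 2251 (53.4%) were at least 1.5-fold higher and 554 (13.1%) lower. Beside this background 6 of the 10 integrated stress response genes were higher and 0 lower, with a median of 1.45, and 10 of 20 ER chaperones were higher and 2 lower, with a median of 0.59. Pooled young cells, both blocks and old cells together gave 238 genes that were higher (5.65%) and 43 that were lower (1.02%), and 5 of the 10 integrated stress response genes and 0 of the 20 chaperones were among them in either direction.

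Ddit3 in old cells was at 55.8 ± 118 TPM in high and 13.7 ± 31.1 TPM in negative cells (SD, n = 39 and 10), and was detected in 19 and 4 of them. Chac1 was found in 15 of 39 and 1 of 10 cells, Vldlr in 14 and 1, Cebpg in 22 and 3. The log2 ratios of the 4 genes were 1.95, 1.89, 1.8 and 1.93, and that of Atf4 1.10. All 4 of Ddit3, Chac1, Vldlr and Cebpg were found together in 3 of 39 old high cells, against 14 of 38 young ones, and at least 3 in 12 of 39. Eif4ebp1 (-0.02) and Atf5 (-0.33) did not show the ratio seen in young cells. The score of the 10 genes had a median of 2.28 in old high and 1.40 in old negative cells, against 3.62 and 2.02 in young cells. Whether the size of the difference depends on age was not tested, since each age is 1 sample.

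Across all tested genes, the young and the old ratios had little in common. Pearson's r across 4214 genes was -0.04 (Spearman's rho 0.01), and it was 0.12 on the difference of mean log2(TPM + 1), where single cells weigh less. Between titles 1 to 54 and titles 55 to 138 it was 0.06. Genes are not independent replicates, and these values are descriptions. Of the 1189 genes higher in young cells, 673 were higher in old cells (56.6% of the young genes and 29.9% of the old), beside the 53.4% of all tested genes, and of the 620 lower ones 88 were (14.2% and 15.9%), beside 13.1%. Of the genes ranked by their ratio above, 9 of the 12 highest and 4 of the 12 lowest had the same sign in old cells. The median of all tested genes in old cells was 0.68, so that most genes were above 0 there. The share of all tested genes with each sign was not counted.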

How the data were processed

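The deposited table gives TPM per NCBI Gene number for 207 single-cell libraries of male mouse islets, 138 Young and 69 Old, and sums to 1000000 per cell. The submitters' processing notes name CASAVA 1.8.2, FastQC and GRCm38/mm10; the aligner, counter, annotation and strand setting are absent from the notes, labels and header. No counts or molecular identifiers were used, so depth is unknown and no count model was applied. Of 44448 rows, 39725 matched a symbol in RefSeq GRCm38.p6. The labels name no animal, hence no test between cells. No doublet caller was run and no cell was removed.

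The measure was log2((mean TPM high + 1)/(mean TPM negative + 1)); genes needed a mean of at least 10 TPM over all 138 young cells, and 1.5-fold (0.58 on the log2 scale) was called. Cells were detected for a gene at 1 TPM or above. Members, thresholds, 24 gene lists and 11 marker lists were chosen with earlier results of these data known. Genes named are the 12 highest and 12 lowest ratios (same sign on every scale and in both title blocks, detected in at least 25% of the higher group), from each list the 2 top and 2 bottom members by ratio, all integrated stress response and ER chaperone members, and 18 genes fixed by name. The report gives a selection of them. Apart from these, Pdx1, Nkx6-1, Slc30a8 and G6pc2 are beta-cell markers. The script was tested on simulated data. Tools were Python 3.11.15, numpy 2.4.6, pandas 2.3.3, scipy 1.17.1 and matplotlib 3.10.9.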

Additional observations from a re-analysis of the deposited data

How the results depend on the processing

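A log2 ratio counted as moved when it shifted by 0.58 or more, and a count when it shifted by more than 1.5 times. Of 2002 values under 17 settings (the ranges without titles 55 to 86, without titles 40 to 54, of titles 1 to 39 and of titles 87 to 138 were added after seeing the data), 1645 shifted by less, 329 moved, and 28 turned in sign from a main ratio of 0.58 or more in size. Among the first 2 classes, 96 values of 27 genes or lists with a smaller main ratio also had the other sign, such as Ppp1r15a within titles 55 to 138 (-0.44), Nr4a1 there (-0.68), Clpp within titles 1 to 54 (0.78) and the heat shock median there (1.03). The integrated stress response median lay between 0.76 and 1.59 and the ER chaperone median between -0.31 and 0.10, and neither shifted by 0.58. The 1189 higher genes became 3129 at a mean of at least 1 TPM, 3698 without a filter and 1835 within titles 1 to 54. The 620 lower genes became 362 with 10 TPM added, 212 on the difference of mean log2 values, 2427 at a mean of at least 1 TPM, 2934 without a filter, 1019 within titles 1 to 54 and 1298 within titles 1 to 39. The 28 were as follows. Within titles 1 to 54 they were the immediate early median (0.12), Hspa1b (0.01), Fos (0.05) and Slc2a2 (0.25). Within titles 55 to 138 they were Derl1 (-0.04), Trap1 (-1.58), Gadd45a (0.07), Bnip3 (-0.12), Ucn3 (-0.24), Vamp2 (-0.15), Lyz2 (0.31) and C1qb (0.09). Within titles 87 to 138 they were the cell cycle median (-0.14), Atf3 (2.20), Iars (-0.77), Sel1l (-0.07), Derl1 (-0.23), Hspa1a (0.01), Hspa1b (0.10), Trap1 (-1.02), Sesn1 (0.17), Aldoa (-0.01), Lyz2 (0.28) and C1qb (0.13). Elsewhere they were Bax within titles 1 to 39 (-0.15), Hspa1b without titles 55 to 86 (0.06), Gadd45a in cells with 3000 to 5500 detected genes (0.21) and Uqcrc2 on the difference of mean log2 values (0.51). Filters and title ranges change which genes or cells enter; the cause of the other shifts was not tested. No paired analysis was possible because each cell has its own number in the labels and no animal is named. Depth is unknown, so a value of 0 TPM does not show that a gene was absent, and 1.5-fold is a size and not a test.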
